A study of Mus musculus with 12 samples.

Results

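Cells that received a control siRNA were compared with cells that received transfection reagent alone, to describe what an siRNA with no intended target does to gene expression in NIH3T3 cells and what these cells express to begin with. NIH3T3 is an immortalised line of mouse fibroblasts, and all arrays come from this 1 line. The comparison uses 6 of the 12 arrays of the series, 3 titled as transfected with sirEGFP and 3 titled as mock transfected, and 19938 genes measured on each. Mock cells were incubated with Dharmafect 2, a lipid transfection reagent, and no siRNA. The sirEGFP cells received the same reagent with an siRNA at 40 nM that is named for EGFP, a jellyfish-derived fluorescent protein for which the mouse genome has no gene. Total RNA was taken 48 h after transfection in both groups, and 100 ng of it gave 2.5 ug of labelled cDNA for each Affymetrix array. The design text calls the 3 arrays of a group biological replicates, without saying which cultures they came from, so p-values measure the spread between these samples. The other 6 arrays hold cells given 1 of a pair of siRNAs against UBF, the nucleolar factor encoded by Ubtf, and are used to set the spread and as values beside the main comparison.

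An siRNA is a short RNA duplex whose guide strand is loaded into an Argonaute protein and directs cleavage of transcripts that match it in full. The same Argonaute proteins carry microRNAs, which Dicer cuts from hairpins and which act through a short seed near their 5′ end, so a guide strand can also lower transcripts that match only its seed. Duplex RNA can in addition be sensed as viral, by Toll-like receptors in endosomes and by RIG-I, MDA5 and PKR in the cytosol, which switches on interferon-stimulated genes, and the lipid carrier itself enters through endosomes. An untargeted siRNA and a mock transfection are the usual pair of controls for these effects, since they differ in the duplex and share the reagent.

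No gene passed the main test between sirEGFP and Mock, which was fitted without the replicate number. Values are log2 expression per gene, a change is the sirEGFP mean minus the Mock mean on that scale, and a gene is called at an adjusted p under 0.05 in limma with Benjamini-Hochberg adjustment over all 19938 genes. By this rule limma called 0 of 19938 genes, or 0%, and the smallest adjusted p was 0.123. With the replicate number as a block it called 3 genes on 12 arrays and 7 on the 6, as given in the last section. At an unadjusted p under 0.05 there were 1247 genes (6.25%), of which 765 were higher (3.84% of all genes) and 482 lower (2.42%). The higher genes were 61.3% of the 1247, against 50.8% without sirEGFP 1 and 52.4% after quantile normalization. The count of 1247 was 720 without Mock 1, 768 without sirEGFP 2, 777 without sirEGFP 3 and 2179 without sirEGFP 1. All 3 sirEGFP arrays lay above all 3 Mock arrays for 1367 genes (6.86%) and below them for 772 (3.87%). The fitted change was above 0 for 10908 genes (54.7%), and the median change over all genes was 0.018.

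The arrays bound the size of most changes in signal, and genes at background level are counted too. The 95% confidence interval of the change lay inside 2-fold in either direction for 19697 genes (98.8%) and inside 1.5-fold for 16430 genes (82.4%). The median half-width of that interval was 0.30 on the log2 scale, and the median standard error (SE) of a change was 0.14. The changes of the central 95% of genes ran from -0.38 to 0.34, around a median within-group SD of 0.165 per gene. A fitted difference of 1.5-fold or more was found for 114 genes, 35 higher and 79 lower, and one of 2-fold or more for 2 genes, the small nucleolar RNAs Snord37 (-1.06) and Snord35a (-1.01). Snord37, at a mean of 4.08, was not above the level of 95% of sensory receptor genes (5.18), which is defined below with the basal profile and serves as a floor, so its size is uncertain. Against the same Mock arrays, limma called 549 genes with UBF oligo 1 (2.75%) and 848 with UBF oligo 2 (4.25%), with 65 and 99 genes at 2-fold or more. The 3 comparisons share the Mock arrays and are given side by side only.

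**Figure D1:**
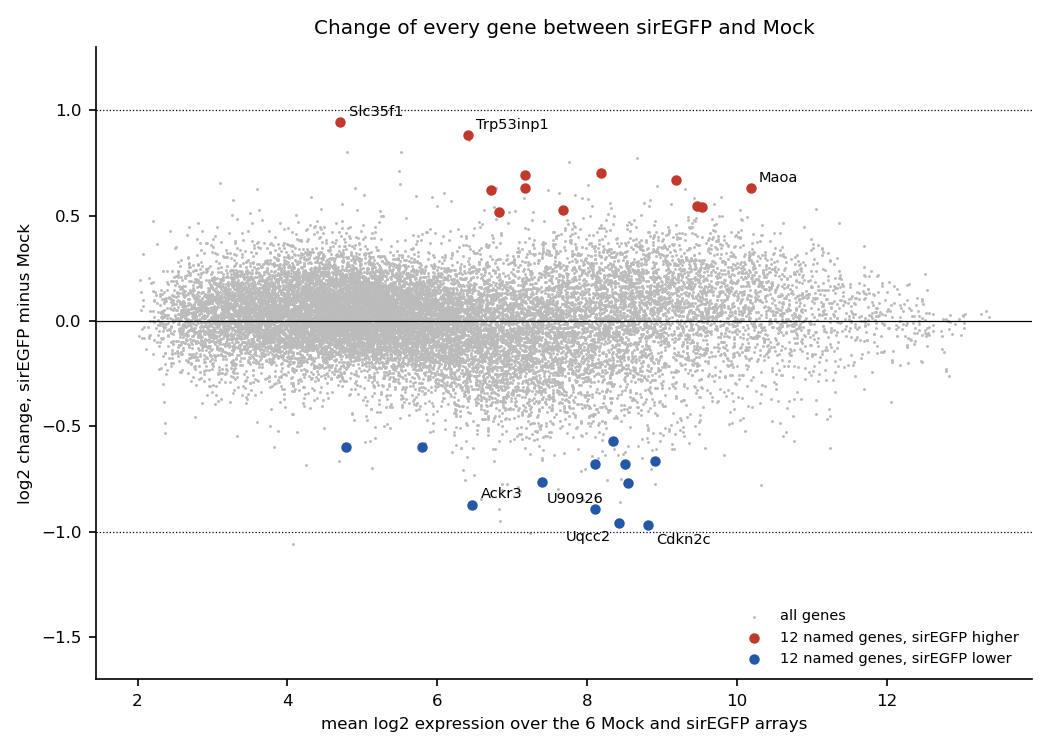
Log2 change, sirEGFP minus Mock (y axis), against the mean log2 expression over the 6 arrays (x axis) for 19938 genes, with dotted lines at 2-fold; the 12 genes named in each direction are coloured. Most points lie between -0.38 and 0.34, and none of the coloured genes passed limma's test after adjustment.

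Arrays of a group and arrays of different groups looked alike as a whole, and 1 array stood at the edge of the spread. Deposited values were used without rescaling. The medians of the 6 arrays lay between 5.44 and 5.51, their lower quartiles between 4.15 and 4.289 and their upper quartiles between 7.272 and 7.386. The share of higher genes depended on scaling, as given above for quantile normalization. The largest axis of variation within the groups took 40.6% of the within-group variance, with sirEGFP 1 at -0.76 and sirEGFP 3 at 0.54 at its ends and the other 4 arrays between -0.16 and 0.22. For some lists replicate 1 was also the highest array of both UBF groups. The centred mean of lysosome genes was 0.032, 0.48 and 0.15 on replicate 1 of sirEGFP, oligo 1 and oligo 2, but Mock was highest on replicate 2 (-0.053). Other lists differed, such as small nucleolar RNAs (0.28, -0.40 and -0.29 on those 3 arrays). A replicate or batch effect was not tested. Among the 79 genes with a fitted decrease of 1.5-fold or more, sirEGFP 1 was the sirEGFP array nearest the Mock mean for 64 (81.0%), against 42.1% of all genes and 17 of the 35 increases. Beside each list median below stands its range when each of the 6 arrays is left out in turn. Of 161 genes named by rule with a change, 52 had one that moved by over 1.5 times or changed sign when 1 of the 6 arrays was left out, 18 of them among the 100 with a change of 0.3 or more in size. Such values are given for some of the genes described. The 161 leave out genes named only for their level, spread or role, and the changes of most of those also moved by that much. Genes were also split into 5 bins of equal size by mean level, and the median change was 0.036, 0.039, 0.008, -0.054 and 0.044 from the dimmest to the brightest bin, so it was above the overall median at both ends and below 0 for genes between 6.23 and 7.99.

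Among named genes whose 3 sirEGFP arrays all lay above the 3 Mock arrays, the 12 with the smallest p had changes of 0.52 to 0.94 with SE of 0.11 to 0.20, and limma adjusted p of 0.31 to 0.559. They were chosen on these values, which are given as a description. The smallest p belonged to Trp53inp1, a stress protein induced by p53 that takes part in autophagy. Its level was 5.86, 5.86 and 6.20 in Mock and 6.68, 6.88 and 6.998 with sirEGFP. The sirEGFP values were the higher on every array, and the change was 0.88 ± 0.16 (SE, n = 3 against 3), or 1.84-fold. Slc35f1, a member of a solute carrier family, stood at 3.67, 4.35 and 4.69 in Mock and at 4.95, 5.23 and 5.36 with sirEGFP (0.94 ± 0.20). Every Mock array lay under the floor of 5.18, so the size of that change is uncertain, and without Mock 1, the lowest array, it was 0.66.

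Of the other members, Adam10, the protease that sheds Notch and many other membrane proteins, stood at 9.04, 9.16 and 9.36 in Mock and at 9.69, 9.84 and 9.68 with sirEGFP (change 0.55). Itga6, a laminin-binding integrin subunit, stood at 8.55, 8.83 and 9.19 against 9.66, 9.41 and 9.50 (0.67), and Pros1, the secreted anticoagulant protein S, at 7.42, 7.25 and 7.56 against 7.80, 7.94 and 8.07 (0.53). For all 3 the groups did not overlap. Dicer1 is given below with the silencing genes. Ythdc2, an RNA helicase that reads methylated adenosine, stood at 7.72, 7.61 and 8.16 against 8.52, 8.57 and 8.51 (0.70 ± 0.15).

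Of the remaining members, Maoa, the mitochondrial monoamine oxidase A, stood at 9.58, 9.94 and 10.09 in Mock and 10.56, 10.50 and 10.43 with sirEGFP (0.63). Kbtbd8, an adaptor of cullin ubiquitin ligases, stood at 6.86, 6.67 and 6.93 against 7.34, 7.54 and 7.66 (0.69). Ttll7, which adds glutamate chains to tubulin, had the smallest change of the 12 at 0.52, with Mock at 6.47 to 6.64 and sirEGFP at 6.99 to 7.23. The phosphodiesterase gene Gdpd1 (0.62) and the acyltransferase gene Gpat3 of glycerolipid synthesis (0.63) also had separate groups, with Gpat3 at 6.57, 7.05 and 6.97 against 7.46, 7.59 and 7.43.

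Among genes whose 3 sirEGFP arrays all lay below the 3 Mock arrays, the 12 with the smallest p had changes of -0.97 to -0.57 and limma adjusted p of 0.123 to 0.576. The smallest p of all genes belonged to Cdkn2c, an INK4 inhibitor of the cyclin D kinases. Cdkn2c stood at 9.15, 9.27 and 9.48 in Mock and at 8.28, 8.47 and 8.23 with sirEGFP. The groups lay far apart relative to their spread, at 9.30 ± 0.17 (SD, n = 3) and 8.33 ± 0.13, and the change was -0.97 ± 0.14 (SE; 95% interval -1.27 to -0.67), or 0.51 times the Mock level. Cdkn2c passed limma's test with the replicate number as a block (adjusted p = 0.0172 on 12 arrays and 0.0341 on the 6) and with array weights (0.0377). Those weights gave UBF oligo 1 replicate 3, outside the comparison, 8.92 against 0.416 to 1.67 for the other arrays. Cdkn2c also passed when UBF oligo 1 replicate 2, an array outside the comparison that sets part of the spread, was left out (adjusted p = 0.0359). Its adjusted p ranged from 0.0172 to 1 over 23 alternatives, while the change itself stayed between -1.05 and -0.88.

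Of the other members, Uqcc2, an assembly factor of respiratory complex III, stood at 9.03, 9.07 and 8.63 in Mock and 8.13, 7.94 and 7.79 with sirEGFP (-0.96 ± 0.17). Mpv17, an inner membrane protein needed to maintain mitochondrial DNA, stood at 8.96, 9.12 and 8.73 against 8.20, 8.23 and 8.07 (-0.77). The transcript U90926 stood at 8.37, 8.82 and 8.49 against 7.50, 7.92 and 7.58 (-0.90). In all 3 the lowest Mock array was above the highest sirEGFP array, with adjusted p of 0.31, 0.521 and 0.31.

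Ackr3, a scavenging receptor for the chemokine Cxcl12, stood at 6.95, 6.89 and 6.87 in Mock and at 6.23, 6.28 and 5.58 with sirEGFP (-0.87), and without sirEGFP 3, its lowest array, at -0.65. Tnfaip6, a hyaluronan-binding protein induced by cytokines, had the same lowest array, at 7.71, 7.85 and 7.80 against 7.26, 7.21 and 6.61 (-0.76, and -0.56 without sirEGFP 3). Alox5ap, which hands arachidonic acid to the lipoxygenase that starts leukotriene synthesis, stood at 8.64, 8.57 and 8.14 against 7.93, 7.74 and 7.64 (-0.68). Of the remaining members, Selenoh, a nuclear selenoprotein, had a change of -0.66, Pimreg, a gene of proliferating cells, one of -0.68, the H/ACA small nucleolar RNA Snora62 one of -0.60, and Dph5, an enzyme of diphthamide synthesis on elongation factor 2, one of -0.57. Xkrx had a change of -0.60, at a mean of 4.78 that lies under the floor of 5.18, so its size is uncertain.

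**Figure D2:**
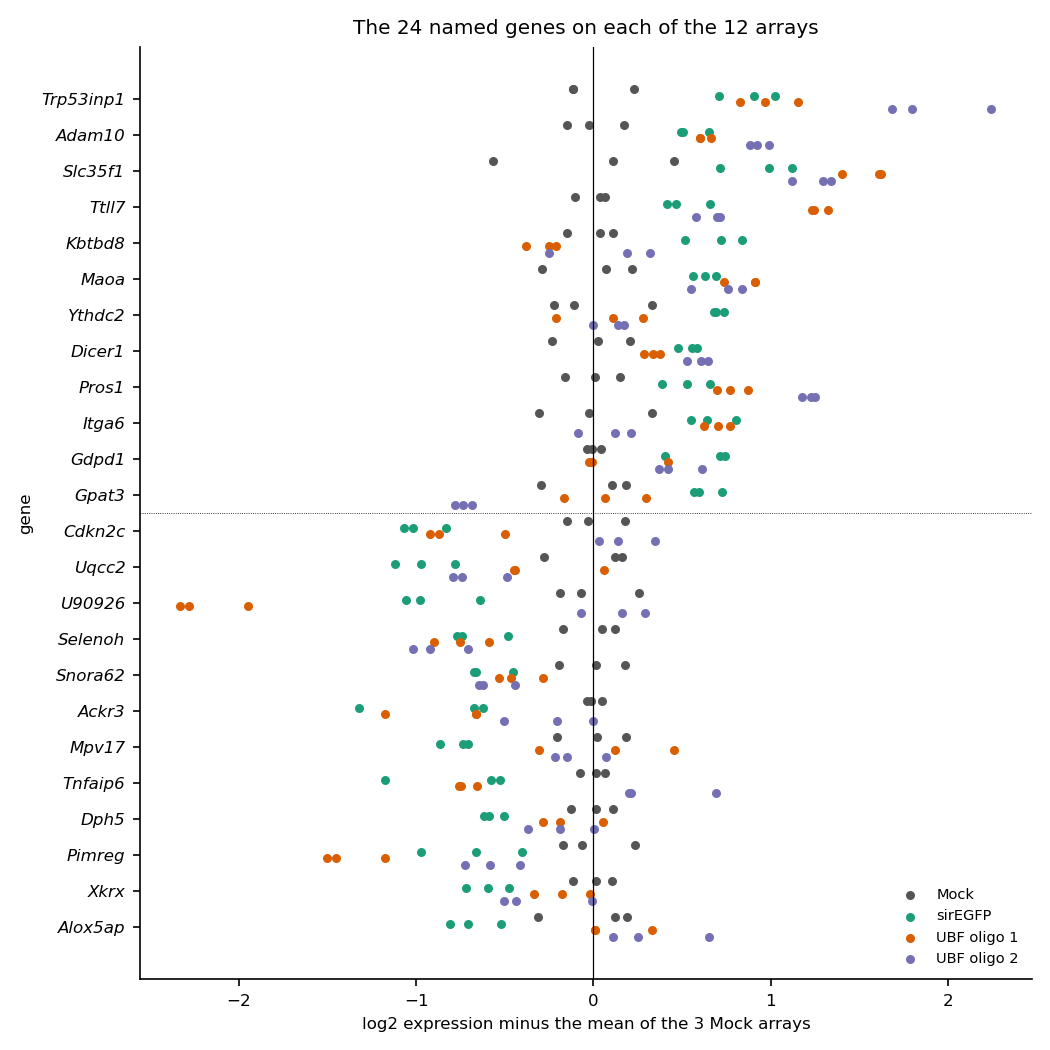
Log2 expression minus the mean of the 3 Mock arrays (x axis) for the 12 genes named as higher and the 12 named as lower with sirEGFP (y axis), with each point 1 of the 12 arrays, coloured by group. The sirEGFP points lie beyond all Mock points by the naming rule; the UBF siRNA points lie on the same side for some genes, such as Adam10, and near Mock for others, such as Mpv17.

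Set beside the UBF siRNAs, which share these Mock arrays and reagent, the 24 genes had the following values, from which no agreement is read because the Mock arrays are common to all 3 comparisons. Trp53inp1 stood 0.98 above Mock with oligo 1 (limma adjusted p = 0.00393) and 1.91 above with oligo 2 (1.88e-05), against 0.88 with sirEGFP. Adam10 gave 0.62 and 0.93 (adjusted p = 0.0072 and 0.000405), Maoa 0.85 and 0.72 (0.0035 and 0.00861), Pros1 0.78 and 1.22 (0.00253 and 5.33e-05), Ttll7 1.27 and 0.66 (5.89e-05 and 0.00361) and Slc35f1 1.55 and 1.25 (0.00119 and 0.00302). Dicer1 gave 0.34 and 0.59, of which only the second passed (adjusted p = 0.199 and 0.0121). Among the lower genes, Selenoh fell by 0.75 and by 0.88 with the UBF siRNAs (adjusted p = 0.0072 and 0.00223), Snora62 gave -0.43 and -0.57 (0.104 and 0.0202) and Pimreg -1.38 and -0.58 (0.000695 and 0.0585).

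Other genes of the 24 had values near Mock, or on its other side, with the UBF siRNAs. Kbtbd8 gave -0.28 with oligo 1 and 0.086 with oligo 2, Ythdc2 0.06 and 0.11, Mpv17 0.09 and -0.10, and Alox5ap 0.12 and 0.34, none of which passed (adjusted p of 0.367 to 0.933). Gpat3, higher with sirEGFP, fell by 0.74 with oligo 2 (adjusted p = 0.0103). Cdkn2c fell by 0.76 with oligo 1 (adjusted p = 0.00885) and stood at 0.18 with oligo 2 (0.673), and U90926 fell by 2.19 with oligo 1 (1.64e-05) and stood at 0.13 with oligo 2 (0.829). Tnfaip6 likewise gave -0.72 (adjusted p = 0.0323) and 0.37 (0.316). Differences between one siRNA's change and another's were not tested here. Ubtf, the gene the other siRNAs aim at, stood at 8.54, 8.63 and 8.41 in Mock and at 8.68, 8.31 and 8.04 with sirEGFP, groups that overlapped (-0.18 ± 0.17, adjusted p = 0.906; -0.35 without sirEGFP 1 and -0.03 without sirEGFP 3).

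Genes that process and use small RNAs were looked at first among the gene lists, and none of 35 was called. The median change of the list was 0.062 (range 0.047 to 0.079 with 1 array left out) against 0.018 over all genes. At an unadjusted p under 0.05, 3 members were higher (background 3.84%) and 0 lower (background 2.42%). Dicer1, the nuclease that cuts microRNA precursors, stood at 9.29, 9.03 and 9.47 in Mock and at 9.85, 9.82 and 9.74 with sirEGFP, so that every sirEGFP array was above every Mock array (0.54 ± 0.12, adjusted p = 0.521). Of its partners, the Argonaute genes Ago1 and Ago2 had changes of -0.039 and -0.056, Ago3 one of 0.21 and Ago4 one of 0.13, the nuclear processors Drosha and Dgcr8 changes of 0.094 and 0.20, the exporter gene Xpo5 0.053 and the duplex-binding cofactor Tarbp2 -0.13, none of them with an unadjusted p under 0.05. The decay helicase gene Ddx6 stood at 9.81, 9.93 and 10.09 against 10.15, 10.27 and 10.32 (0.31, adjusted p = 0.781), and Pan3, a subunit of a deadenylase, stood at 8.71, 8.41 and 8.78 against 8.78, 8.97 and 9.08 (0.31, and 0.20 without Mock 2).

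Probe sets for 300 microRNA genes, counted with a few host genes such as Mir17hg, gave a median change of 0.032 (range -0.013 without sirEGFP 3 to 0.083 without sirEGFP 1). Of the 300, 181 lay above 0 and 119 below, where 54.7% of all genes lay above 0. At an unadjusted p under 0.05, 7 were higher (2.33%, against 3.84% of all genes) and 3 lower (1%, against 2.42%). Such a probe set reads the RNA of the microRNA's gene, and the mature microRNA was not measured. Only 85 of the 300 had a mean above that floor of 5.18. The 4 with the smallest p are Mir218-2, Mir449c, Mir125b-1 and Mir16-2, and the sequences of their 5′ arms are printed because they load into the same Argonaute proteins as the siRNA and show the seed by which such guides pair. They come from RefSeq on GRCm38.p6, where 271 of the 300 genes were matched, and capitals mark the seed, bases 2 to 8:
mmu-miR-218-5p: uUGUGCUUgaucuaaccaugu
mmu-miR-449c-5p: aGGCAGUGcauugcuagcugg
mmu-miR-125b-5p: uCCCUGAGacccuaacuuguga
mmu-miR-16-5p: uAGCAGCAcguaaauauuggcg
No seed is shared among the 4. The siRNA's own sequence was not analysed here.

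Their values were low, and the groups did not overlap for any of the 4, which were picked by their p. Of all 300, 13 lay above Mock on every sirEGFP array (4.33%, against 6.86% of all genes) and 7 below (2.33%, against 3.87%). Mir218-2 on chromosome 11 stood at 3.45, 3.45 and 3.38 in Mock and at 3.61, 4.22 and 3.89 with sirEGFP (0.48, adjusted p = 0.714). Mir449c, whose seed is also that of 3 other mature names in the table used, stood at 4.78, 5.03 and 4.76 against 5.08, 5.28 and 5.27 (0.35). Mir16-2, which shares a transcript with the Smc4 gene, stood at 4.13, 4.18 and 4.37 against 4.50, 4.60 and 4.76 (0.39). Mir125b-1 went the other way, at 4.91, 4.60 and 4.48 against 4.18, 4.30 and 4.30 (-0.41, adjusted p = 0.727). The means of all 4 over the 6 arrays lie under 5.18, the level of 95% of sensory receptor genes.

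None of 41 interferon-stimulated genes, the classical readout of duplex RNA sensing, was called. A change above 0 was found for 22 and below 0 for 19, where 54.7% of all genes lay above 0. The median was 0.051 (range 0.009 to 0.050 with 1 array left out, and -0.016 without genes under the floor). All 41 had a 95% interval inside 2-fold, but only 24 had a mean above the floor of 5.18. For the rest the interval describes signal near background. Ifit1, under the floor on every array given, stood at 4.67, 4.47 and 4.64 in Mock and at 4.91, 4.63 and 4.63 with sirEGFP, a change of 0.13 with an interval of -0.28 to 0.53. The antiviral and signalling genes Rsad2 (-0.089), Oas1a (0.15), Irf7 (0.021), Usp18 (0.13) and Cxcl10 (0.10) also had overlapping groups. With 1 array left out, Rsad2 ran from -0.25 to 0.03, Oas1a from 0.03 to 0.30, Irf7 from -0.11 to 0.15 and Usp18 from 0.02 to 0.23. The smallest p of the list belonged to Isg20, an exonuclease that degrades viral RNA, which was lower with sirEGFP, at 7.52, 7.48 and 7.22 against 7.01, 6.72 and 6.81 (-0.56 ± 0.15, adjusted p = 0.668). Herc6, the mouse ISG15 ligase, stood on the other side, at 7.32, 7.16 and 7.51 against 7.52, 7.89 and 7.84 (0.42), and Oas2, a synthetase of oligoadenylates, stood at 5.57, 5.47 and 5.46 against 5.28, 5.04 and 5.11 (-0.36).

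The sensors upstream of these genes were measured as well, and none of 25 was called (median change 0.014, range -0.026 to 0.020). The cytosolic helicase genes Ddx58, which encodes RIG-I, and Ifih1, which encodes MDA5, had changes of -0.038 and 0.043. Ifih1 lay at a mean of 3.74, within the range of sensory receptor genes, and Ddx58 at 6.82. Eif2ak2, the gene of the kinase PKR, stood at 8.78, 8.59 and 8.89 against 8.82, 9.05 and 8.89 (0.16), and Tlr3, the endosomal receptor for duplex RNA, stood at 6.35, 6.08 and 6.56 against 6.26, 6.61 and 6.56 (0.14). Tlr7 and Tlr8, receptors for single-stranded RNA, lay at means of 3.87 and 3.72. The sensor with the smallest p was Cgas, a receptor for DNA, at 6.84, 6.90 and 6.88 against 7.18, 7.10 and 7.23, which left a gap between the groups (0.30 ± 0.11, adjusted p = 0.759).

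Among inflammatory targets of NF-kB 0 of 30 were called, with a median of -0.009 (range -0.058 to 0.018). At an unadjusted p under 0.05, 0 were higher (background 3.84%) and 2 lower (background 2.42%). The 2 were chemokine genes. Ccl7 stood at 10.15, 9.49 and 9.59 in Mock and at 9.25, 9.14 and 9.39 with sirEGFP (-0.48, adjusted p = 0.727, and -0.28 without Mock 1), and Cxcl5 stood at 10.78, 10.65 and 10.78 against 10.27, 10.41 and 10.39 (-0.38, adjusted p = 0.714). In both the sirEGFP arrays lay under the Mock arrays. Ccl2, which attracts monocytes, overlapped between the groups at 11.07, 10.19 and 10.49 against 10.51, 10.10 and 10.45 (-0.22, and 0.02 without Mock 1), and Il6 stood at 5.68, 4.93 and 5.09 against 5.58, 5.67 and 5.24 (0.26, from 0.11 without Mock 2 to 0.48 without Mock 1). Beside these, Ccl7 stood 1.27 above Mock with UBF oligo 2 (adjusted p = 0.000953).

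Cholesterol genes were among the lists with the lowest median. Most of the 24 serve synthesis under the sterol-sensing factor SREBP, but some, such as Abca1, Abcg1 and Scap, do not. Of the 24 genes, 21 had a change below 0 and 3 above, against 9030 of all 19938 genes below. The median was -0.16, and none was called. At an unadjusted p under 0.05, 5 were lower (background 2.42%) and 0 higher. The mean level of the list, centred per gene, was 0.20, 0.39 and 0.19 on the Mock arrays and 0.16, 0.14 and -0.054 with sirEGFP, so the groups did not overlap but sirEGFP 1 lay close to Mock 1 and Mock 3. Of single genes, 3.87% lay below Mock on every sirEGFP array and 6.86% above, shares that are no background for a mean over many genes. Insig1, which holds SREBP in the endoplasmic reticulum, stood at 11.25, 11.39 and 11.10 against 10.85, 11.03 and 10.74 (-0.38). The mevalonate pathway kinase gene Pmvk stood at 7.18, 7.42 and 6.95 against 6.67, 6.81 and 6.50 (-0.52 ± 0.15, adjusted p = 0.668), and Dhcr7, which makes cholesterol from its last precursor, had a change of -0.33. Both of these lay below Mock on every sirEGFP array. Mvk did not: sirEGFP 1 at 7.58 lay among the Mock values of 7.37 to 7.78, with the other 2 arrays at 6.80 and 6.75 (-0.52, and -0.79 without sirEGFP 1). The median of the list ranged from -0.211 to -0.084 over 23 alternatives, the latter without Mock 2.

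In the wider lipid list, 28 genes had a median of -0.089 (range -0.113 without sirEGFP 1 to -0.030 without sirEGFP 3), with 1 gene higher (background 3.84%) and 4 lower (background 2.42%) at an unadjusted p under 0.05. Scd2, a fatty acid desaturase, stood at 8.93, 9.18 and 8.82 in Mock and at 8.82, 8.45 and 7.89 with sirEGFP (-0.59, and -0.35 without sirEGFP 3), with sirEGFP 1 level with Mock 3. Fabp4, a fatty acid carrier, stood at 6.15, 6.16 and 6.32 against 5.88, 5.55 and 5.91 (-0.43), and Angptl4, a secreted inhibitor of lipoprotein lipase, at 7.14, 7.03 and 6.80 against 6.74, 6.32 and 6.48 (-0.48). The triglyceride enzyme gene Dgat1 had a change of -0.55, with sirEGFP 1 at 7.66 among Mock values of 7.56 to 7.997.

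The route by which lipid carriers enter cells was covered by lists for endocytosis and lysosomes, with medians of 0.005 for 30 clathrin and endosome genes (range -0.011 to 0.080) and -0.015 for 39 lysosome and autophagy genes (range -0.108 without sirEGFP 1 to 0.053 without Mock 2). Cltc, the clathrin heavy chain, stood at 10.55, 10.49 and 10.97 in Mock and at 11.04, 11.11 and 11.20 with sirEGFP (0.45, adjusted p = 0.714). Mitf, a transcription factor of the family that controls lysosomal genes, stood at 4.54, 4.54 and 4.29 against 5.04, 4.89 and 5.10 (0.55), and Atp6v1a, a subunit of the proton pump that acidifies lysosomes, at 8.72, 8.83 and 8.996 against 9.21, 9.25 and 9.14 (0.35). Each of these had separate groups, though Mitf lay within the range of sensory receptor genes. Npc1, which exports cholesterol from lysosomes, overlapped between the groups (0.21, and 0.13 without sirEGFP 1).

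No gene of the stress lists was called. None of 19 heat shock genes (median 0.021, range -0.015 to 0.067) reached an unadjusted p under 0.05, against 6.25% of all genes. Its smallest p belonged to Hspa4, an HSP110 family chaperone, which stood at 11.17, 11.23 and 11.38 in Mock and at 11.38, 11.52 and 11.49 with sirEGFP, with sirEGFP 1 above Mock 3 by less than 2 decimals show (0.20 ± 0.11, adjusted p = 0.817). The chaperone genes Hsph1, Hsp90aa1 and Hspd1 had changes of 0.14, 0.15 and 0.22 with overlapping groups, and of 0.053, 0.09 and 0.13 without Mock 1. For 26 endoplasmic reticulum chaperones and folding genes the median was 0.045 (range -0.045 without Mock 1 to 0.094 without Mock 2), with Ero1a, an oxidase of protein folding, at 9.02, 9.18 and 9.29 against 9.28, 9.77 and 9.78 (0.45) and Herpud1, a factor of protein degradation there, at -0.35 (-0.23 without Mock 2). Of 32 genes of the integrated stress response 21 lay below 0, against 9030 of all 19938 genes. The list had a median of -0.071 that was -0.141 without sirEGFP 1, 0.006 without Mock 2 and 0.052 without sirEGFP 3. Its smallest p belonged to Ddit3, the transcription factor CHOP, at 8.50, 8.07 and 7.92 in Mock and at 7.71, 7.70 and 7.64 with sirEGFP (-0.48 ± 0.13, adjusted p = 0.668, and -0.31 without Mock 1). Among 29 oxidative stress genes, many but not all of them under NRF2, the median was 0.061 (range 0.023 to 0.084). Cat, the peroxide-degrading catalase, stood at 8.26, 8.22 and 8.16 against 8.52, 8.64 and 8.58, a narrow separation of 0.37 ± 0.10.

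Targets of p53 had a median change of 0.084 over 30 genes, which ranged from 0.029 (without sirEGFP 3) to 0.104 over 23 alternatives. At an unadjusted p under 0.05, 3 were higher (background 3.84%) and 0 lower (background 2.42%). The 3 were Trp53inp1, the endoplasmic reticulum protein gene Ei24, at 9.71, 9.71 and 9.94 against 10.34, 10.19 and 10.41 (0.53 ± 0.14), and the translesion polymerase gene Polk, whose groups overlapped (0.37, and 0.23 without sirEGFP 3). Mdm2, the ubiquitin ligase that degrades p53, stood at 9.14, 8.84 and 9.29 against 9.32, 9.18 and 9.63, also with overlap (0.29, and 0.16 without Mock 2 or without sirEGFP 3). For 31 genes of apoptosis the median was 0.092, with the executioner Mlkl of necroptosis at 0.27, the apoptosome scaffold Apaf1 at 0.31 and the survival gene Bcl2 at -0.32. Without Mock 3 that median was 0.003, and without Mock 1 0.114.

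Cell division genes lay on both sides. Of 51 genes of G2/M and mitosis 39 had a change below 0, against 9030 of all 19938 genes. At an unadjusted p under 0.05, 4 were lower (background 2.42%) and 0 higher (background 3.84%). The list had a median of -0.102, which was -0.017 without Mock 3 and -0.175 without sirEGFP 2. Cenpa, the centromeric histone, stood at 9.35, 9.63 and 9.30 in Mock and at 8.83, 8.91 and 8.79 with sirEGFP (-0.58 ± 0.16, adjusted p = 0.668). Cdc20, the activator of the anaphase-promoting complex, stood at 9.52, 9.73 and 9.46 against 9.25, 9.04 and 8.79 (-0.54), and the spindle kinase gene Aurka at 9.54, 9.98 and 9.67 against 9.26, 9.48 and 9.11 (-0.45). In these 3 genes each sirEGFP array lay under each Mock array, while the list mean per array overlapped, at 0.13, 0.32 and 0.33 in Mock and 0.12, 0.23 and 0.039 with sirEGFP.

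Genes of DNA replication and entry into S phase had a median of 0.018 over 48 genes, which was -0.062 without sirEGFP 1 and 0.041 without sirEGFP 3. Tk1, thymidine kinase, had the lowest change at -0.78, with sirEGFP 1 at 9.15 among the Mock values of 9.01 to 9.54 and the other sirEGFP arrays at 8.25 and 8.18, and it stood at -1.09 without sirEGFP 1. The polymerase gene Pola1 (0.42), the replicative helicase gene Mcm4 (0.27) and the licensing regulator gene Dtl (0.26) lay above Mock on every sirEGFP array. Among inhibitors of the cyclin D kinases, chosen after their values were seen, Cdkn2d stood at 6.89, 7.05 and 6.80 in Mock and at 6.40, 6.56 and 6.41 with sirEGFP (-0.45, adjusted p = 0.668), which like Cdkn2c left the groups apart. Cdkn2a and Cdkn2b, which lie side by side in the genome, stood at means of 5.37 and 5.66 over the 6 arrays, within the upper range of sensory receptor genes, with changes of 0.073 and 0.067.

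Replication-dependent histone genes had the lowest median of the 28 lists, -0.193 over 26 genes, and 0 were called. Of the 26, 22 lay below 0 and 4 above, against 9030 of all 19938 genes below. At an unadjusted p under 0.05, 4 were lower (background 2.42%) and 0 higher (background 3.84%). Their mean level was 0.19, 0.26 and 0.11 on the Mock arrays and 0.065, -0.006 and -0.036 with sirEGFP, so every sirEGFP array was under every Mock array. Among the 28 lists and the 9 marker lists, only this list and those for cholesterol and ribosomal proteins had separate means. Of single genes, 6.86% lay above Mock on every sirEGFP array and 3.87% below, which is an unlike measure and no background for list means. The H2B gene H2bc14 stood at 9.47, 9.66 and 8.98 against 9.14, 8.69 and 8.79, which overlapped through Mock 3 (-0.49), while H2bc3 stood at 6.96, 6.95 and 6.68 against 6.56, 6.59 and 6.38 without overlap (-0.36). The linker histone gene H1f5 had a change of -0.37. The median was -0.257 without sirEGFP 1 and -0.147 without Mock 2 or sirEGFP 3. Histone genes are close copies of each other, so their probe sets can share signal. Only 20 of the 26 lay above the level of 95% of sensory receptor genes.

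Of 56 cytosolic ribosomal protein genes 43 lay below 0, against 9030 of all 19938 genes, with a median of -0.075. At an unadjusted p under 0.05, 3 were lower (background 2.42%) and 1 higher (background 3.84%). Their mean level was 0.17, 0.12 and 0.087 in Mock against 0.046, 0.007 and 0.010 with sirEGFP, again without overlap. The median was -0.029 without sirEGFP 1 and -0.086 without sirEGFP 2. Rpl12 stood at 8.10, 7.47 and 7.69 against 7.37, 7.08 and 7.21 (-0.53, adjusted p = 0.714) and Rpl14 at 9.54, 9.57 and 9.37 against 9.24, 9.23 and 9.05 (-0.32). These genes have many processed copies in the genome, which a probe set may also read. All 56 intervals lay inside 2-fold.

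Small nucleolar RNAs, which guide modification of ribosomal RNA, had a median of -0.12 over 51 genes, 38 of them below 0, against 9030 of all 19938 genes. At an unadjusted p under 0.05, 5 were lower (background 2.42%) and 0 higher (background 3.84%). The sign rests on 1 array, since the median was 0.021 without Mock 1 and -0.301 without Mock 2. Per array the mean level was 0.66, -0.021 and 0.42 in Mock and 0.28, -0.003 and 0.31 with sirEGFP, which overlapped widely, with replicate 2 lowest in both groups. Snord35a stood at 8.24, 7.46 and 7.52 against 7.38, 6.24 and 6.59 (-1.01 ± 0.38, interval -1.81 to -0.20, adjusted p = 0.743), and Snord37 at 4.70, 4.34 and 4.79 against 4.99, 3.04 and 2.62, where sirEGFP 1 was the highest of the 6 arrays (-1.06 ± 0.55, from -1.78 without sirEGFP 1 to -0.59 without sirEGFP 3). Their host genes and short length were not examined. A list of RNA polymerase I factors, shared polymerase subunits and nucleolar proteins such as Ncl and Fbl had a median of -0.009 over 27 genes (range -0.043 to 0.041). The polymerase I initiation factor gene Rrn3 stood at 9.80, 9.80 and 9.81 against 9.98, 10.28 and 10.22 (0.35, adjusted p = 0.755). The shared polymerase subunit gene Polr2e had a change of -0.61 that was -0.91 without sirEGFP 1.

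**Figure D3:**
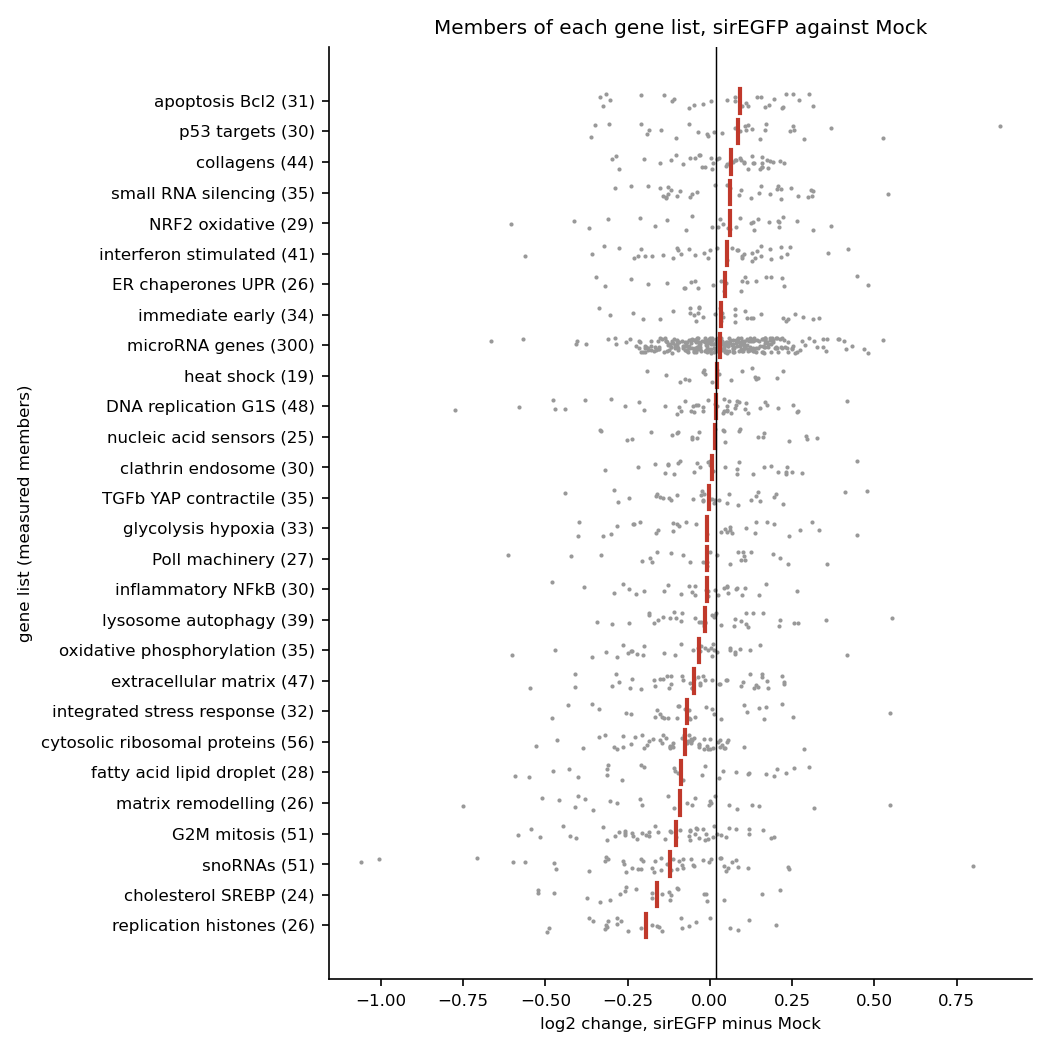
Log2 change, sirEGFP minus Mock (x axis), of each measured member (grey points) of the 28 gene lists (y axis, number of members in brackets), with the list median as a red bar and the median of all genes, 0.018, as a vertical line. Medians run from -0.193 for replication histones to 0.092 for apoptosis genes, and the members of each list spread on both sides of 0.

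**Figure D4:**
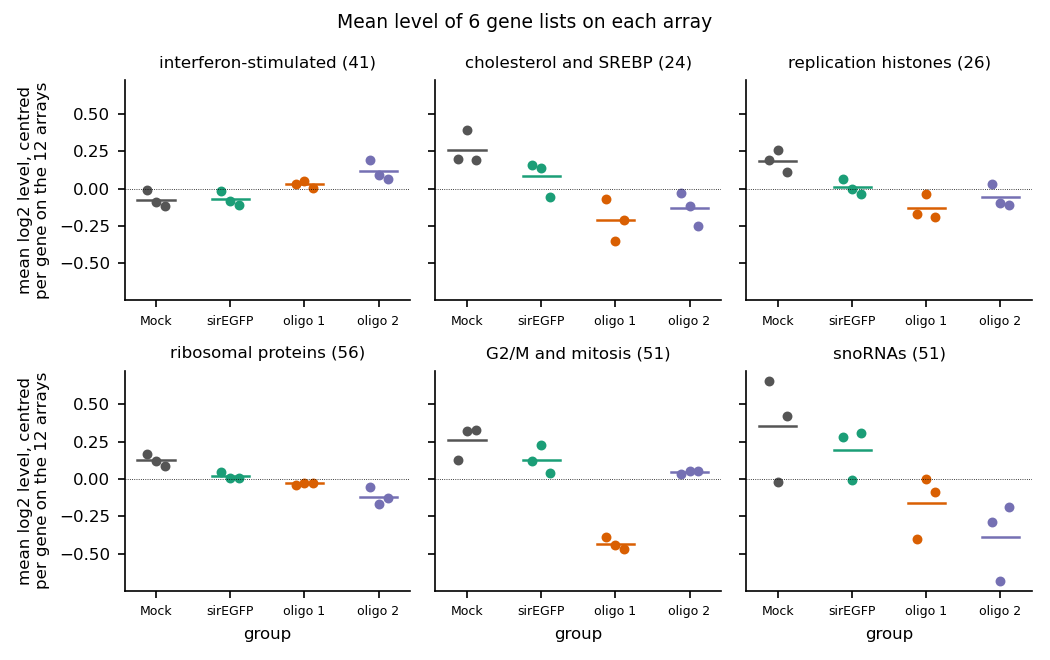
Mean log2 level of 6 gene lists (y axis, centred per gene on the 12 arrays), with 1 point per array, a bar for the group mean and groups along the x axis. Mock and sirEGFP points do not overlap for cholesterol, replication histone and ribosomal protein genes and overlap for interferon-stimulated, mitotic and small nucleolar RNA genes.

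Matrix genes, the main products of fibroblasts, had a median of -0.049 over 47 genes, which was 0.000 to 3 decimals without sirEGFP 1. The collagen genes, 44 of them, had one of 0.065 (range 0.028 without sirEGFP 3 to 0.111 without sirEGFP 1). Bgn, the small proteoglycan biglycan, stood at 10.92, 10.87 and 10.87 in Mock and at 10.64, 10.32 and 10.05 with sirEGFP (-0.55, adjusted p = 0.727). The groups were separate, with tight Mock values and a wide spread among the sirEGFP arrays. Col5a1 and Col6a3 also lay lower on every sirEGFP array (-0.30 and -0.28), and Col1a2, a chain of the main fibrillar collagen, overlapped at 9.48, 8.84 and 9.15 against 9.04, 8.68 and 8.89 (-0.29, from -0.45 without Mock 2 to -0.12 without Mock 1). Among 26 matrix-remodelling genes, with a median of -0.09 (range -0.158 to -0.050), the protease inhibitor gene Timp3 stood at 8.70, 8.64 and 8.54 against 8.40, 8.05 and 8.06 (-0.46), Mmp19 had a change of -0.51 and the sheddase gene Adam17 one of 0.31.

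Genes under TGF-beta, YAP and contraction had a median of -0.003 over 35 (range -0.083 without sirEGFP 1 to 0.052 without sirEGFP 3). Inhba, which encodes the activin A subunit, stood at 7.05, 6.86 and 7.19 in Mock and at 7.50, 7.47 and 7.56 with sirEGFP (0.48 ± 0.13, adjusted p = 0.668), and Skil, a repressor of SMAD signalling, stood at 6.06, 6.31 and 6.44 against 6.51, 6.67 and 6.86 (0.41). Id3, a target of BMP signalling, was lower on each sirEGFP array (-0.44, and -0.27 without Mock 2). For the 34 immediate early genes the median was 0.035 (range -0.023 to 0.072), and the largest of the 4 changes named was that of Ier5 at 0.33.

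Energy metabolism gave medians of -0.008 for 33 glycolysis and hypoxia genes (range -0.044 without Mock 3 to 0.115 without sirEGFP 3) and -0.033 for 35 genes of oxidative phosphorylation (range -0.061 to -0.036), with members on both sides. Ndufs1, the largest subunit of respiratory complex I, stood at 9.30, 9.38 and 9.61 in Mock and at 9.91, 9.90 and 9.74 with sirEGFP (0.42 ± 0.12, adjusted p = 0.714), while Ndufb10 of the same complex stood at 9.58, 9.56 and 9.32 against 9.32, 8.87 and 8.85 (-0.47). Vegfa, the angiogenic growth factor, had a change of -0.40 and the phosphofructokinase gene Pfkp one of 0.33 (0.20 without sirEGFP 1), both with overlapping groups.

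The basal profile of these cells was read from the 6 arrays together. Since the files hold no detection calls, the level of 1240 olfactory, vomeronasal and taste receptor genes, which fibroblasts are not known to use, was taken as a floor. Their median was 3.52, their 95th percentile 5.18 and their 99th percentile 5.98. Above the 95th percentile lay 11785 genes (59.1%) and above the 99th 8731 (43.8%). A mean of 12 or more was reached by 109 genes and one of 10 or more by 1049. Probe sets differ in how brightly they read a given amount of RNA, so levels of different genes have no strict order. The receptor genes themselves had a median change of 0.042, with 61.8% above 0.

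The 15 brightest genes lay between 12.84 and 13.37, and 7 of them encode ribosomal proteins. Eef1a1, the elongation factor that brings tRNA to the ribosome, was the highest, at 13.35, 13.37 and 13.37 in Mock and 13.28, 13.41 and 13.45 with sirEGFP. The ribosomal protein genes were Rps4x, Rpl23, Rps6, Rpl10, Rpl4, Rpl37a and Rps25. Beside them stood Txn1, the redox protein thioredoxin, at 13.26, the calcium-binding genes S100a11 and Calm2, the ubiquitin-conjugating gene Ube2d3, the growth-associated Tpt1, the RNA-binding gene Rbm3 and the potassium channel gene Kcnma1. Changes among the 15 ran from -0.069 for Ube2d3 to 0.046 for Rps4x, and all had overlapping groups.

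Fibroblast markers were present as the label says. Of 23 such genes, 20 lay above both the 95th and the 99th percentile of receptor genes. Vim, the intermediate filament vimentin, stood at 12.76, 12.82 and 12.88 in Mock and at 12.76, 12.83 and 12.87 with sirEGFP, a difference smaller than the spread within each group. S100a6, S100a4 and the matrix protein Sparc had means of 12.79, 12.54 and 12.18, fibronectin (Fn1) one of 10.87, the mesenchymal factor Prrx1 one of 9.70 and the surface protein Thy1 one of 9.04. Below the floor lay Tcf21 (4.94), Fap (3.14) and Lum (3.09), so 3 genes often used to mark fibroblasts in tissue were not above it in this line. A pair of receptor tyrosine kinase genes among the markers had the lowest changes of the list. Ddr2, a collagen receptor, stood at 9.39, 9.33 and 9.15 against 9.01, 8.81 and 8.54 (-0.51, adjusted p = 0.721), and Pdgfrb at 7.15, 6.90 and 6.96 against 6.90, 5.84 and 5.73 (-0.84, and -1.22 without sirEGFP 1, whose value equalled the lowest Mock value to 2 decimals).

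**Figure D5:**
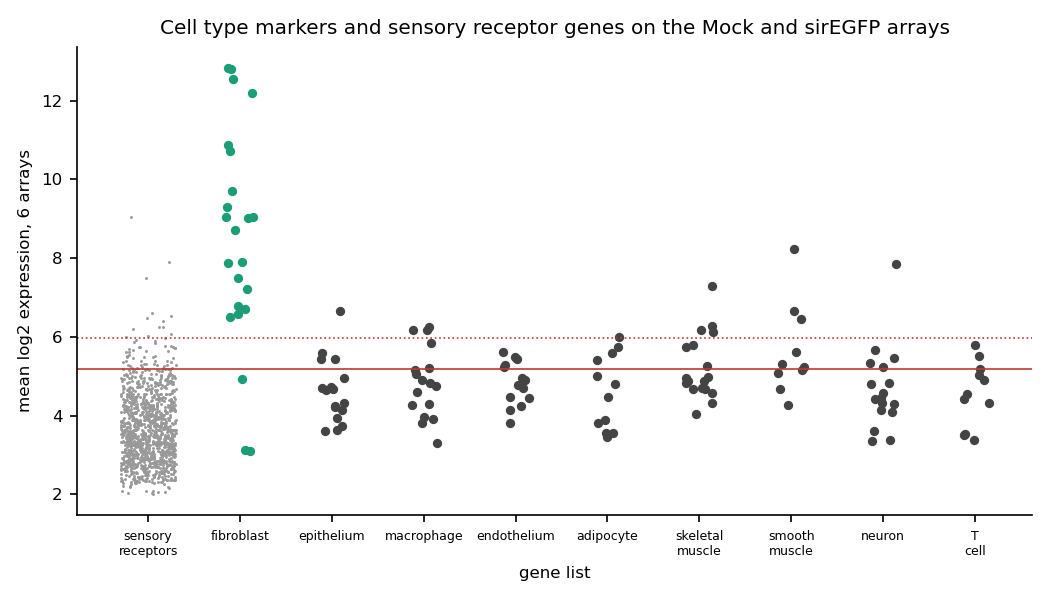
Mean log2 expression over the 6 Mock and sirEGFP arrays (y axis) of 1240 sensory receptor genes and of the markers of 9 cell types (x axis), with 1 point per gene and lines at the 95th (solid) and 99th (dotted) percentile of the receptor genes, 5.18 and 5.98. Fibroblast markers lie mostly above both lines, and most markers of the other 8 cell types lie near or under them.

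Markers of other cell types were mostly at the level of receptor genes. Above the 95th and the 99th percentile lay 4 and 1 of 17 epithelial markers, 5 and 3 of 17 of macrophages, 5 and 0 of 14 of endothelium, 4 and 1 of 12 of adipocytes, 5 and 1 of 17 of neurons and 2 and 0 of 11 of T cells. The single epithelial gene was the keratin gene Krt8 (6.67), with Krt14, Cldn4 and Cldn3 between 5.43 and 5.59, and the highest macrophage genes were Cd68 (6.26), Cd14 (6.17) and Lyz2 (6.16). In the vascular and fat lists the highest were Cdh5 (5.63) and Fabp4 (5.99), and in the neuronal list Tubb3 (7.84), a tubulin. Muscle lists held more, with 7 and 4 of 18 for skeletal muscle and 6 and 3 of 10 for smooth muscle. Among them were the contractile genes Acta2 (8.24), Smtn (6.66), Actg2 (6.46), Tnni2 (7.29) and Acta1 (6.29), while Myh11 of smooth muscle stood at 5.31. The other members above the 95th percentile were Tnnc2, Tnnt3, Myh8, Ckm, Myod1, Lmod1 and Synpo2. The smooth muscle markers Tagln and Cnn1 were not above it.

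None of these marker lists had a gene called between sirEGFP and Mock, and their medians lay between -0.061 for fibroblast markers and 0.094 for adipocyte markers, with ranges of -0.111 to -0.024 and 0.051 to 0.162 when 1 array was left out. Acta2, the smooth muscle actin of activated fibroblasts, stood at 8.16, 8.51 and 8.41 in Mock and at 8.66, 7.96 and 7.73 with sirEGFP. Its sirEGFP arrays lay on both sides of Mock (-0.25 ± 0.34), and the change was -0.52 without sirEGFP 1 and -0.055 without sirEGFP 3. Tnni2, a troponin subunit, was lower on every sirEGFP array at 7.83, 7.38 and 7.38 against 7.32, 6.86 and 6.95 (-0.49, adjusted p = 0.739). In bulk RNA, fewer cells of a type and less RNA per cell cannot be told apart.

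The genes that varied most within the groups had wide ranges in both Mock and sirEGFP or in 1 of them. Dpt, which encodes the matrix protein dermatopontin, stood at 9.27, 6.75 and 8.48 in Mock and at 8.51, 6.61 and 7.94 with sirEGFP. Replicate 2 was the lowest in both groups, and the change of -0.48 ± 0.66 was smaller than its error and ran from -1.19 without Mock 2 to 0.07 without Mock 1. Efhc2 had its highest value on replicate 2 in both groups, at 4.36, 5.29 and 4.34 against 4.03, 6.001 and 4.74, and the histone gene H3c15 its lowest there, at 5.09, 3.65 and 5.59 against 4.70, 4.24 and 4.92. The remaining wide genes were Snord37, given above, Mir1a-2 and the odorant receptor gene Olfr963, whose means of 3.88 and 3.71 lie in the receptor range.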

How the data were processed

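RNA from 12 samples of NIH3T3 cells was measured on Affymetrix arrays, 3 per group, in 4 groups. The deposited table holds log2 expression for 35512 probe sets on each array, a scale read from the numbers. How the authors summarised and normalized the scans is not given in the sources used here, and limma is named, without its role, per the submitters' processing notes. Of the probe sets, 21789 carried 1 gene symbol in the platform annotation, 1621 several and 12102 none in the annotation used, and only those with 1 symbol were kept. Symbols were updated by Entrez identifier through RefSeq names of GRCm38.p6 (21698 matched, 91 kept). Where a gene had more than 1 probe set, as 999 did, the brightest on average over the 12 arrays stood for it, leaving 19938 genes. A linear model with a mean for each group was fitted to all 12 arrays by lmFit and eBayes of limma 3.58.1 (R 4.3.3), leaving 8 residual degrees of freedom; tests were two-sided, with Benjamini-Hochberg adjustment. The script was tested on simulated data.

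The comparison, its gene lists and the naming rule were chosen with earlier results of these data known. The rule took, as no gene was called, the 12 genes with the smallest p in each direction whose 3 sirEGFP arrays lay beyond the 3 Mock arrays, passing over predicted and clone names, then up to 4 members per list by p, Ubtf, the 15 brightest, the 6 most variable, and the brightest markers. Genes named outside it (Cdkn2a, Cdkn2b, Cdkn2d, and members of the silencing, sensor, interferon, inflammatory and fibroblast lists named for their role) were chosen after their values had been seen. The number of arrays limits the precision. The alternatives were other sets of arrays, the replicate number as a block, array weights, centring, quantile normalization, filters on dim genes, other rules per gene, a trended robust variance, and each of the 12 arrays left out.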

Additional observations from a re-analysis of the deposited data

How the results depend on the processing

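limma called 0 genes under the settings tried, except the following. With the replicate number as a block, 3 genes were called on 12 arrays (0 higher, 3 lower: Cdkn2c, U90926 and Uqcc2, adjusted p = 0.0172 each) and 7 on the 6 Mock and sirEGFP arrays alone (2 higher, Slc35f1 and Trp53inp1, and 5 lower, with Pepd and Snord35a added, adjusted p of 0.0341 to 0.0406). Same-numbered Mock and sirEGFP arrays deviated together at r = 0.089, 0.085 and 0.155 across genes, and each array correlated best with its own number. These weak values, which leave out the UBF arrays, do not settle whether the numbers pair the samples. Some genes kept an order by number in all 4 groups. Snord35a was lowest on replicate 2 of each (7.46, 6.24, 6.07 and 5.35) and Polr2e highest on replicate 1 (7.88, 7.70, 7.97 and 7.40). If the numbers do pair the samples, the unblocked fit ignores that pairing. Array weights gave 2 calls, both lower (Cdkn2c and Uqcc2, adjusted p = 0.0377). That fit leans on UBF oligo 1 replicate 3, outside the comparison, whose weight was 8.92 against 0.416 to 1.67 for the other arrays. Leaving out 1 array gave 0 to 1 calls (0 higher, 0 to 1 lower). Genes at an unadjusted p under 0.05 numbered 1247, and 1892 with the block on 12 arrays, 2819 with array weights and 720 to 2179 with 1 array left out. Non-overlapping genes numbered 2139, and 3355 to 6628 with an array left out, since fewer arrays must then be ordered, and 3481 over all probe sets, a setting added after the data had been seen. Of 161 genes named with a change, a set without genes named only for level or role such as Vim and Irf7, 158 kept their direction throughout, all 24 separated genes among them. The exceptions were Kdr, at 0.0012 without Mock 2 and 0.0063 without sirEGFP 2 in a range of -0.10 to 0.0063 with an array left out, Lmod1, at 0.019 without Mock 1 and 0.0039 without sirEGFP 3 in a range of -0.23 to 0.019, and Cd3g, at -0.03 without sirEGFP 3 in a range of -0.03 to 0.31. Of 851 list medians under alternatives, 16 moved by more than the spread between replicates; the interferon list stood at -0.016 without genes under the receptor level. The cause of these differences was not tested. The higher share among non-overlapping genes was 63.9%, 58.6% after centring and 56.0% after quantile normalization.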
